A study of Mus musculus with 6 samples.

Results

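Nuclear RNA polymerases I, II and III are multi-subunit enzymes, and the 25 subunit genes described here are those whose annotated symbol begins with Polr1, Polr2 or Polr3 followed by a letter. They were taken from the 18193 genes measured by a probe set with 1 annotated symbol on Affymetrix mouse arrays, each gene by its brightest probe set over the 6 arrays. By known composition, 3 belong to polymerase I alone (Polr1a, Polr1b, Polr1e), 2 to polymerases I and III (Polr1c, Polr1d), 8 to polymerase II alone or in association with it (Polr2a, Polr2b, Polr2c, Polr2d, Polr2g, Polr2i, Polr2j, Polr2m), 3 to all 3 enzymes (Polr2e, Polr2f, Polr2h) and 9 to polymerase III alone (Polr3a to Polr3g, Polr3gl, Polr3k). These are the subunit genes analysed here and not the full set of subunits of each enzyme. Polr2k and Polr2l, for example, had no probe set that carried either symbol alone.

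Bone marrow progenitors were sorted by the gate Lin- Sca1+ CD150+ CD48+, that is without lineage markers on their surface. The dKO mice carried MxCre together with floxed c-myc and N-myc alleles, and the controls carried the same floxed alleles with no MxCre. All mice were 8 weeks old, on a mixed background, and had 2 daily injections of pI-pC, an inducer of interferon and through it of the Mx promoter that drives Cre, with the final dose 3 days ahead of the sort. There were 3 dKO arrays, each from 3 pooled mice, and 3 control arrays, each from 2 pooled mice. Only dKO mice carried MxCre, so the transgene itself and the loss of both genes cannot be told apart. The tissue label of control 1 names LT-HSCs, but its gate and title are those of the other arrays.

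Polymerase I makes the long ribosomal RNA precursor in the nucleolus, polymerase II makes messenger RNA, and polymerase III makes transfer RNA and the small ribosomal 5S RNA. MYC proteins bind DNA with their partner MAX at the E-box CACGTG and are known to promote ribosomal RNA and transfer RNA synthesis as well as transcription by polymerase II, which ties them to the growth of dividing blood progenitors. In these enzymes the largest and second-largest subunits together form the active centre, and the smaller ones serve in assembly, start-site opening, RNA cleavage or contact with initiation factors.

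Upstream sequence is shown for the 1 subunit gene that passed the test, Polr1b, and for Polr3g and Polr3gl, which encode alternative forms of 1 polymerase III subunit and whose arrays separated in opposite directions. Each run is the 250 bases before the annotated start (RefSeq, GRCm38.p6), 5′ to 3′ on the gene's strand, and capitals mark the E-box CACGTG.
Polr1b (chr2:129100746-129100995, plus strand): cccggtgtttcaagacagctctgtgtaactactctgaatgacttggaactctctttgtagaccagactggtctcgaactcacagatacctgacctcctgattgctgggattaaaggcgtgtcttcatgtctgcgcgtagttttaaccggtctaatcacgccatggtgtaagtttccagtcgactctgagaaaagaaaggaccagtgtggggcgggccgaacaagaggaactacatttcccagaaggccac
Polr3g (chr13:81711014-81711263, minus strand): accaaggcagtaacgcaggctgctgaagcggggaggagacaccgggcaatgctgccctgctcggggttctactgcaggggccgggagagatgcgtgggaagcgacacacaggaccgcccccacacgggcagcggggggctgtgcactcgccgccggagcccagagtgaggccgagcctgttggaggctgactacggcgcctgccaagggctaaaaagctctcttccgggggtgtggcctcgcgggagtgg
Polr3gl (chr3:96594182-96594431, minus strand): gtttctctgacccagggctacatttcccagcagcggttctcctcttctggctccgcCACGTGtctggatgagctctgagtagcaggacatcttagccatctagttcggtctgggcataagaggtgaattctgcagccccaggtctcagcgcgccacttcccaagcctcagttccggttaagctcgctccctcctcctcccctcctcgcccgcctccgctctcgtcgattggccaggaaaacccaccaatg
The window of Polr3gl held 1 E-box, which began 194 bases before the start, and those of Polr1b and Polr3g held none. Of the 21 subunit genes with a window in the table, 2 held CACGTG, which reads the same on both strands: Polr3c and Polr3gl. Over all 32851 windows of that length the share was 6.02%, and over all 27025 genes with a window it was 6.86%. The related motif CACGCG, or CGCGTG on the other strand, was in the windows of 8 of the 21 genes (Polr1c, Polr2b, Polr2e, Polr2f, Polr2h, Polr2j, Polr3c and Polr3k), against 8.65% of all genes with a window. Counted by window it was in 8 of 23, against 7.62% of all windows, and it is not in capitals since none of the printed windows held it. The shares over all genes were not matched for base composition or expression, and none of the 8 genes passed the test. These matches describe the letters of the windows only.

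All values are log2 values the authors made with RMA, which equalizes the distributions of the arrays before it combines the probes of a set. Each difference (dKO minus control) is therefore relative to the other transcripts of its array. A change in total RNA per cell would not show. Differences were tested with limma over all genes, and a gene was called when its Benjamini-Hochberg adjusted p was under 0.05. In a bulk sample, fewer cells that express a gene and less RNA per cell cannot be told apart. The targeted gene Myc had 7.99, 7.87 and 7.44 in dKO, against 10.79, 10.95 and 10.47 in control (adjusted p = 0.00014), and the Mycn probe sets changed by -5.27, -0.83 and 0.34, the last 2 with adjusted p over all probe sets of 0.185 and 0.427. The labels do not place these probe sets inside or outside the deleted exons. The median over all probe sets of an array was 5.91 to 5.94. The interquartile range was 3.34, 3.47 and 3.04 in dKO 1, dKO 2 and dKO 3, and 3.33 to 3.43 in control. The deposited distributions were therefore not identical, and dKO 3 had the narrowest. The 3′ minus 5′ difference of the Gapdh control probe sets, a sign of RNA integrity, was 2.34 to 2.73 in dKO and 2.11 to 2.32 in control, while that of the beta-actin probe sets was 0.09 to 0.30 in dKO and 0.17 to 0.24 in control. Of the gate's markers, Slamf1 (CD150) had 8.40 to 9.58 in dKO and 7.74 to 8.74 in control, and Cd48 and Ptprc lay at 10.57 or higher in every array; Ly6a (Sca1) was not measured by a probe set of 1 symbol. Marker lists of several other cells also moved. Called higher were 7 of 10 T and NK cell markers (mean level 7.46 to 7.72 in dKO, 5.85 to 6.41 in control), 5 of 8 megakaryocyte markers (9.24 to 9.55 in dKO, 7.59 to 7.70 in control) and 4 of 5 mast cell and basophil markers (8.17 to 9.43 in dKO, 6.59 to 6.78 in control), and called lower were 2 of 5 granulocyte and monocyte markers (6.84 to 7.89 in dKO, 8.40 to 9.39 in control). Of 6 stem and progenitor markers (mean level 8.75 to 9.18 in dKO, 9.07 to 9.34 in control) 1 was called lower, the cytokine receptor Flt3 (-2.73, adjusted p = 0.00067), and 1 higher, the transcription factor Gata2 (1.34, adjusted p = 0.0115). Of 4 erythroid markers (7.96 to 8.39 in dKO, 7.53 to 7.57 in control) 1 was called higher, Car1, a carbonic anhydrase (0.78, adjusted p = 0.0358). Among 5 B cell markers (5.63 to 5.88 in dKO, 5.34 to 5.72 in control) 0 were called. The same held for 5 lineage markers of the gate (6.66 to 7.15 in dKO, 6.63 to 6.86 in control). The part of these cells, and of RNA integrity, in the values below was not tested. Xist was high in dKO 1 (10.50) and control 1 (9.10) and between 5.03 and 5.86 in the other arrays.

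Of the 25 subunit genes, 1 was called lower, Polr1b, and 0 were called higher. That is 4%, where 2.85% of all genes were called lower, 3.12% higher and 5.97% in either direction, so the number of calls lay near the background. Under an unadjusted p of 0.05 lay 5 of the 25, against 18.2% of all genes. The sign of the difference was negative for 17 of 25 (68.0%), against 42.4% of all genes. The groups did not overlap, with all dKO arrays lower, for 5 of 25 genes (20%, against 10.7% of all genes), namely Polr1a, Polr1b, Polr1c, Polr3e and Polr3g. They did not overlap with all dKO arrays higher for 1, Polr3gl (4%, against 12.7%). In either direction the groups of 23.4% of all genes did not overlap. The median difference was -0.18, and 0.05 over all genes.

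By enzyme, the median difference was -0.45 for the 3 polymerase I genes, -0.59 for the 2 genes shared by polymerases I and III, -0.28 for the 9 polymerase III genes, -0.18 for the 3 genes of all enzymes and 0.13 for the 8 polymerase II genes. The negative sign was found in 3 of 3, 2 of 2, 7 of 9, 2 of 3 and 3 of 8 of them. These medians are descriptions with no test. That of polymerase I was the difference of its middle gene, Polr1a, which was not called. The polymerase III median was -0.53 without dKO 2 and -0.16 without dKO 3, and the polymerase II median turned to -0.03 without dKO 1 and to -0.07 without dKO 1 and control 1 together, the pools with high Xist.

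**Figure D1:**
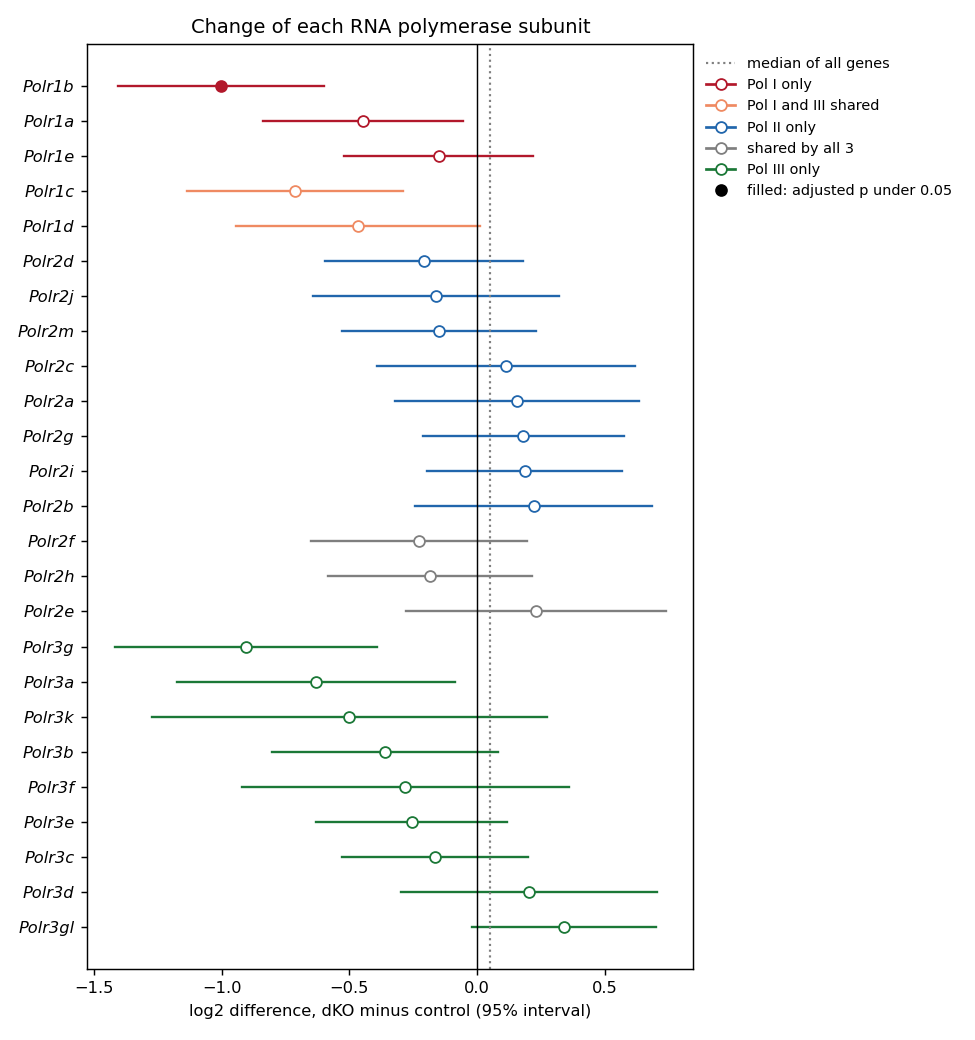
Log2 difference (dKO minus control) of each subunit gene with its 95% interval from the limma fit, coloured by the enzyme the subunit belongs to. The filled point, Polr1b at -1.002, is the called gene, the polymerase II genes lie between -0.21 and 0.22, and the dotted line at 0.05 is the median of all genes.

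Polr1b fell to 49.9% of its control level. It encodes the second-largest subunit of polymerase I, which together with the largest forms its active centre. Polr1b had 5.98, 6.21 and 6.03 in dKO, against 6.85, 7.26 and 7.11 in control. Every dKO array was lower than every control array, by more than the spread within either group, which was 0.12 in dKO and 0.21 in control (SD, n = 3 each). The difference was -1.002 ± 0.18 (SE, limma, adjusted p = 0.0116). The call was lost without control 2 (adjusted p = 0.060), without control 3 (0.0555) and without both pools with high Xist (0.0576), at differences of -0.91, -0.99 and -1.06. Polr1b was measured by 1 probe set.

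Polr1a encodes the largest subunit of polymerase I. It had 8.29, 7.98 and 8.24 in dKO, against 8.73, 8.65 and 8.47 in control, so the groups did not overlap. The difference of -0.45 ± 0.17 (SE) did not pass (adjusted p = 0.206). It had 5 probe sets, of which 3 had means from 7.51 to 8.39. Those 3 differed by -0.45, -0.64 and -0.48, each without overlap of the groups, while the others, at means of 2.31 and 2.04, differed by -0.02 and 0.07.

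Polr1e encodes the subunit PAF53, which acts with CD3EAP (PAF49) when polymerase I starts transcription. It averaged 7.95 ± 0.06 in dKO and 8.10 ± 0.13 in control (SD, n = 3 each), and the groups overlapped. Its difference was -0.15 ± 0.16 (SE, adjusted p = 0.727), and its dimmer probe set differed by -0.42.

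Other subunits of polymerase I carried older symbols and so lie outside the 25 genes. Twistnb, a subunit of the stalk that contacts initiation factors, differed by -0.52, Cd3eap by -0.38 and Znrd1, a subunit known in yeast for RNA cleavage, by -0.27, with adjusted p of 0.344, 0.365 and 0.466. The groups did not overlap for Cd3eap, at 6.21, 6.50 and 6.36 in dKO, against 6.52, 6.63 and 7.06 in control. They did not overlap for Znrd1 either, at 8.74, 8.96 and 8.94 in dKO, against 9.03, 9.15 and 9.27 in control. With these 3 genes the median of the polymerase I genes was -0.41.

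Polr1c and Polr1d encode the assembly pair on which polymerases I and III are both built, and human mutations in either gene cause Treacher Collins syndrome. Polr1c had 9.52, 9.61 and 9.71 in dKO, against 10.33, 10.59 and 10.06 in control, so every dKO array was lower. Its difference of -0.72 ± 0.19 (SE) lay just outside the threshold (adjusted p = 0.0591). Among the alternatives the adjusted p ran from 0.0199, with a trend and robust variance, to 0.340, without both pools with high Xist, and the dimmer probe set differed by -0.51 without overlap of the groups. Polr1d had 8.96, 9.63 and 9.16 in dKO, against 9.53, 9.79 and 9.83 in control. Only dKO 2 lay above the lowest control array, and the difference of -0.47 ± 0.21 (SE) did not pass (adjusted p = 0.287). Its other 3 probe sets differed by -0.33, -0.27 and -0.05.

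Among the polymerase II genes none of 8 was called or had groups that did not overlap, and 0 of 8 lay under an unadjusted p of 0.05. Over all genes the shares were 5.97% called, 23.4% without overlap and 18.2% under that p. With 8 genes, counts of 0 do not set the polymerase II genes apart from these shares. Taken over all 8, the 95% intervals of the differences reached from -0.64 to 0.69, and each interval included 0. Polr2a, whose product carries the long tail that couples transcription to RNA processing, had 9.72, 9.03 and 9.59 in dKO, against 9.34, 9.16 and 9.37 in control. The dKO arrays lay on both sides of the controls, and the difference was 0.16 ± 0.21 (SE, adjusted p = 0.795). Its other probe set, at nearly the same mean, differed by -0.30 (9.28 averaged over 6 arrays, 9.37 for the brighter), so no direction can be given for Polr2a.

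Polr2b, the second-largest subunit of polymerase II, had 9.93, 9.49 and 9.61 in dKO, against 9.15, 9.69 and 9.54 in control. The groups overlapped at a difference of 0.22 ± 0.21 (SE, adjusted p = 0.672). The assembly pair Polr2c and Polr2j differed by 0.11 and -0.16, and the stalk pair Polr2d and Polr2g by -0.21 and 0.18. Polr2i, which takes part in accuracy and RNA cleavage, differed by 0.19, and Polr2m, whose product binds polymerase II and holds back its start, by -0.15. The lowest adjusted p among these 6 was 0.623, for Polr2d.

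Polr2e, Polr2f and Polr2h encode subunits built into every one of the enzymes. They differed by 0.23, -0.23 and -0.18, with adjusted p from 0.618 to 0.694 and overlapping groups. In Polr2e the highest dKO array had 9.01 and the lowest 8.23, a range that enclosed the control arrays at 8.20 to 8.53 except the lowest. Polr2f had 8.41 to 8.88 in dKO and 8.69 to 9.01 in control, and Polr2h 9.36 to 9.72 in dKO and 9.59 to 9.87 in control.

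**Figure D2:**
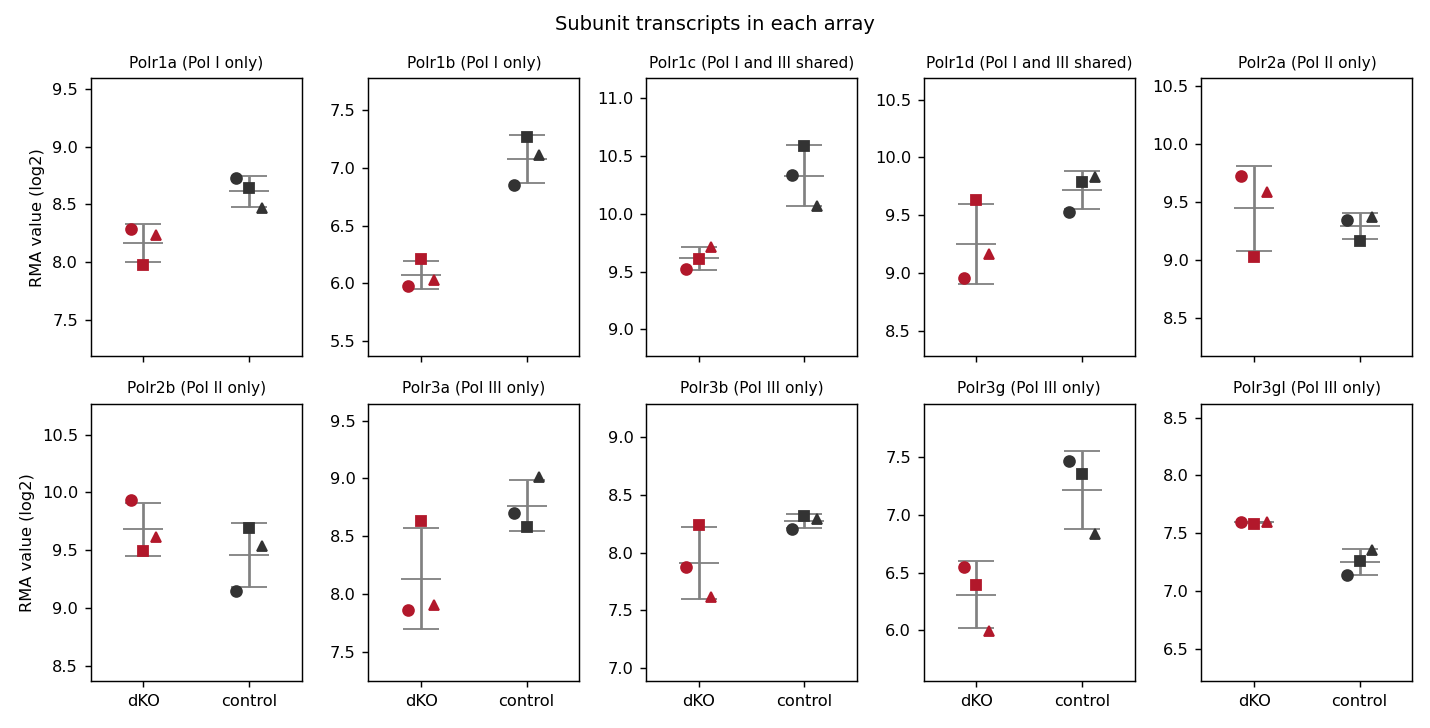
RMA values (log2) of 10 subunit genes in each array, dKO in red and control in dark grey, with mean and SD as grey bars and the same span of the axis in every panel. Circles, squares and triangles are arrays 1, 2 and 3 of each group; the groups are apart for Polr1a, Polr1b, Polr1c, Polr3g and Polr3gl and overlap for Polr1d, Polr2a, Polr2b, Polr3a and Polr3b.

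Values of polymerase III subunits varied among the genes and between dKO pools. Polr3a, the largest subunit, had 7.86, 8.64 and 7.90 in dKO, against 8.70, 8.58 and 9.01 in control. dKO 1 and dKO 3 lay below all controls and dKO 2 among them. The difference of -0.63 ± 0.24 (SE) did not pass (adjusted p = 0.196). With single arrays left out that p ran from 0.0519, without dKO 2, up to 0.492. The dimmer probe sets of Polr3a differed by -0.35 and -0.17, with overlapping groups. Polr3b, the second-largest subunit, had 7.88, 8.24 and 7.61 in dKO, against 8.20, 8.32 and 8.29 in control. Here too dKO 2 was the array among the controls, and the difference was -0.36 ± 0.20 (SE, adjusted p = 0.397). Polr3k, which serves RNA cleavage and termination, had 8.64, 8.91 and 7.64 in dKO, against 9.31, 8.41 and 8.98 in control. The groups overlapped at -0.50 ± 0.34 (SE, adjusted p = 0.527), and with single arrays left out the difference ran from -0.76, without dKO 2, to -0.12, without dKO 3. Its 6 probe sets ranged from -0.89 to 0.11, of which 2 dimmer ones, at -0.66 and -0.89, had groups that did not overlap.

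Polr3g and Polr3gl encode alternative forms of 1 subunit of the part of polymerase III that opens the start site. The Polr3g form is known for its presence in undifferentiated cells and the Polr3gl form for its presence in most tissues. Polr3g had 6.54, 6.40 and 5.99 in dKO, against 7.46, 7.35 and 6.83 in control. Every dKO array was lower, to 53.4% of the control level in the mean, and the difference of -0.91 ± 0.23 (SE) lay just outside the threshold (adjusted p = 0.0511). That p was under 0.05 without control 3 (0.0446), with the mean of probe sets taken for all genes (0.0378), with genes of a mean under 5 left out (0.0376) and with the Xist level as a covariate (0.0385), and ran up to 0.178 without control 2. Polr3gl had 7.60, 7.58 and 7.60 in dKO, against 7.14, 7.26 and 7.36 in control. Every dKO array was higher, and the difference of 0.34 ± 0.16 (SE) did not pass (adjusted p = 0.306). The difference between the pair, Polr3g minus Polr3gl in each array, lay between -1.61 and -1.05 in dKO and between -0.53 and 0.33 in control, a shift of -1.25 ± 0.30 (SE). This pair was singled out after its values were seen, so the shift has no test. Each gene had 1 probe set.

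The remaining polymerase III genes showed smaller differences. Polr3c and Polr3f belong to the same start-opening part as Polr3g and differed by -0.16 and -0.28, and the 5 probe sets of Polr3f ranged from -0.61 to 0.59. Polr3e had 8.57, 8.37 and 8.26 in dKO, against 8.65, 8.68 and 8.64 in control. The groups did not overlap, with a difference of -0.26 ± 0.17 (SE, adjusted p = 0.496). Its partner Polr3d differed by 0.20, and by -0.12 in its dimmer probe set. Crcp, a stalk subunit of polymerase III under another symbol, differed by 0.12 (adjusted p = 0.875).

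**Figure D3:**
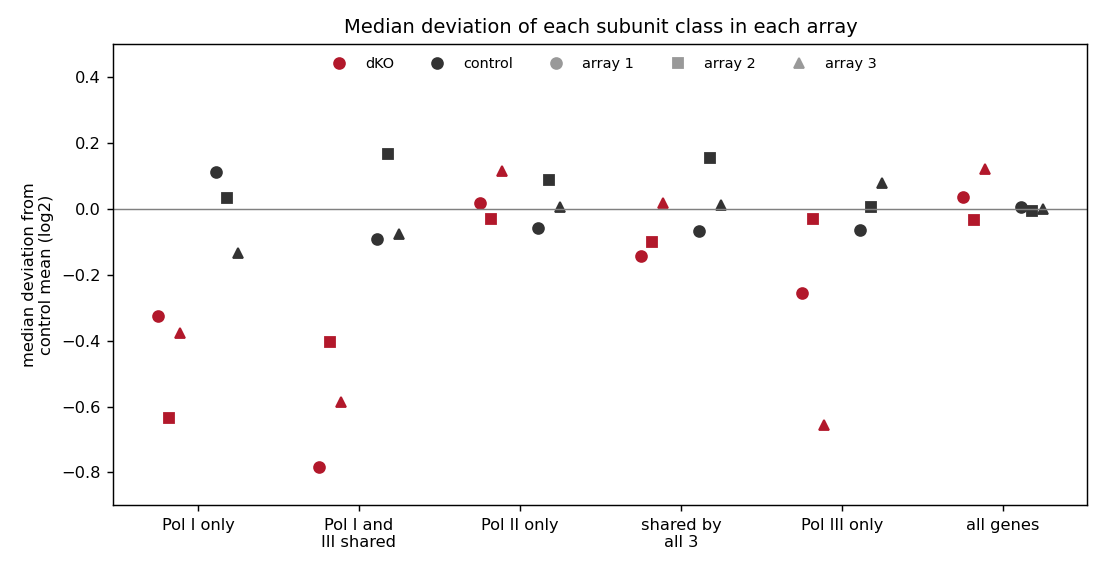
Median, over the genes of a class, of each gene's log2 value minus its control mean, one point per array with dKO in red left of control in dark grey. All dKO points lie below all control points for polymerase I (-0.64 to -0.33 in dKO, -0.13 to 0.11 in control) and for the subunits shared by I and III (-0.78 to -0.40 in dKO, -0.09 to 0.17 in control), whereas polymerase III spans -0.66 to -0.03 in dKO and polymerase II stays within -0.03 to 0.11 in dKO. The polymerase I median is the value of its middle gene, which was Polr1a in every dKO array.

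The classes separated differently in single arrays. The polymerase I class, whose median in every dKO array was the value of Polr1a, was lowest in dKO 2 (-0.64). The class shared by I and III was lowest in dKO 1 (-0.78). The polymerase III class was lowest in dKO 3 (-0.66) and lay at -0.03 in dKO 2. The median of all genes itself was 0.12 in dKO 3, 0.04 in dKO 1 and -0.03 in dKO 2.

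Corresponding subunits of the enzymes were compared directly, as the difference between their changes, in 6 pairs. With 3 arrays against 3 the smallest p of a two-sided exact permutation test is 0.1, so no pair could pass the threshold. The difference in change of Polr1b minus Polr2b was -1.22 ± 0.20 (SE, exact p = 0.1, adjusted over 6 pairs 0.2). That of Polr1b minus Polr3b was -0.64 ± 0.16, and that of Polr1a minus Polr2a -0.60 ± 0.16, each with the same exact p. In these 3 pairs the dKO arrays did not overlap the control arrays, but with the mean of all probe sets the difference between Polr1a and Polr2a was -0.23. The first genes of these pairs, Polr1b and Polr1a, had groups without overlap by themselves, so the pairs are not separate evidence. The groups of 23.4% of all single genes did not overlap, and the share over all pairs of genes was not computed. Polr3a minus Polr2a (-0.79 ± 0.47 SE) and Polr3b minus Polr2b (-0.58 ± 0.29 SE) overlapped, with exact p of 0.3 and 0.2, as did Polr1a minus Polr3a (0.19 ± 0.40 SE, exact p = 0.6). With single arrays left out, Polr3a minus Polr2a ran from -1.25, without dKO 2, to -0.51, without dKO 1, and it was -0.31 with the mean of all probe sets. Polr3b minus Polr2b ran from -0.84, without dKO 2, to -0.44, without dKO 1, and was -0.32 without both pools with high Xist. Polr1a minus Polr3a ran from -0.010, without dKO 1, to 0.53, without dKO 2.

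Every probe set of the subunits was also examined, 54 in all for the 25 genes. The sign was negative in 7 of 8 for polymerase I, 6 of 6 for the subunits shared by I and III, 20 of 25 for polymerase III, 3 of 6 for the subunits of all enzymes and 4 of 9 for polymerase II. Their medians were -0.43, -0.40, -0.28, 0.01 and 0.11. Probe sets of 1 gene measure the same RNA and are not independent. A probe set of opposite sign to the brightest was present for Polr1a, Polr2a, Polr3d, Polr3f and Polr3k.

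**Figure D4:**
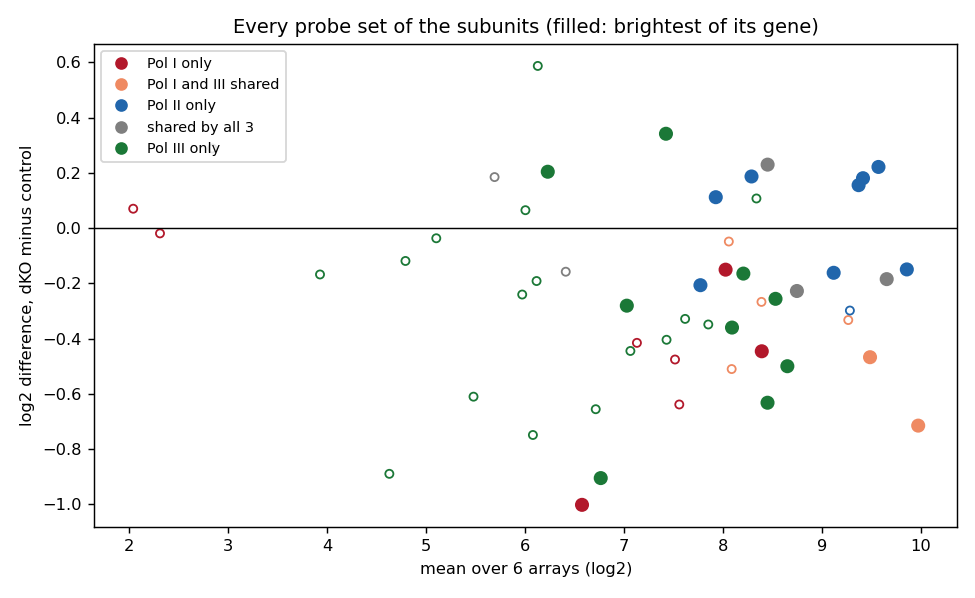
Log2 difference (dKO minus control) of all 54 subunit probe sets against their mean log2 value over the 6 arrays, coloured by enzyme, filled where the probe set is the brightest of its gene. Apart from 1 probe set of Polr1a at 0.07, the polymerase I and shared I and III probe sets lie at or below -0.02, and the polymerase II probe sets lie between -0.30 and 0.22.

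Genes that work with the polymerases were taken from lists written with earlier results of these data known. Among 7 initiation and termination factors of polymerase I, 1 was called lower (14.3%, against 2.85% of all genes) and 0 higher, with a median of -0.14. The called gene was Taf1d, a subunit of the promoter factor SL1, with 9.06, 8.79 and 8.49 in dKO, against 9.54, 9.73 and 9.74 in control (-0.89 ± 0.19 SE, limma adjusted p = 0.0274). Its call was lost without control 1 (adjusted p = 0.0574), control 2 (0.107), control 3 (0.110) or dKO 2 (0.0679) and without both pools with high Xist (0.0535). Ubtf, which binds along ribosomal DNA, differed by 0.41, Ttf1, which binds its terminators, by 0.39, and Rrn3, which links polymerase I to SL1, by -0.14, with adjusted p of 0.311, 0.378 and 0.837. The list's median was 0.11 without dKO 3.

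Of 17 polymerase III factors 0 were called by limma, against 5.97% of all genes, and the median was -0.16. Under an unadjusted p of 0.05 lay 2 of the 17, against 18.2% of all genes. The members of the factor TFIIIC nearest the threshold were Gtf3c4 (-0.56) and Gtf3c2 (-0.44), with adjusted p of 0.225 and 0.246. Brf1, a TFIIIB subunit, differed by 0.11, and Maf1, which represses polymerase III, by -0.31.

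Of 29 polymerase II general initiation factors 1 was called higher (3.45%, near the 3.12% of all genes) and 0 lower, with a median of 0.04. It was Taf10, a subunit of TFIID and SAGA, with 10.46, 10.47 and 10.61 in dKO, against 9.64, 9.78 and 9.91 in control (0.74 ± 0.17 SE, adjusted p = 0.0321). Leaving out any single array ended the call, the adjusted p being 0.0537 without dKO 3 and up to 0.126 without control 1. It was also lost without both pools with high Xist (0.243) and with the mean of its probe sets (0.24, adjusted p = 0.544).

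Of 21 elongation factors 1 was called higher (4.76%, against 3.12% of all genes) and 0 lower, with a median of 0.10. It was Ell2, a component of the super elongation complex, with 9.80, 9.12 and 8.29 in dKO, against 6.67, 6.95 and 7.26 in control. The groups were far apart, although the dKO arrays spread widely (SD 0.76, against 0.30 in control). The difference was 2.11 ± 0.35 (SE, adjusted p = 0.00771), and its adjusted p stayed at or under 0.0371 without any single array. With the mean of its probe sets the difference was 1.16.

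Of 9 factors that assemble or import the polymerases 1 was called lower (11.1%, against 2.85% of all genes) and 0 higher, with a median of -0.31. It was Rpap2, a phosphatase of the polymerase II tail that also takes part in import, with 6.75, 6.76 and 6.63 in dKO, against 7.35, 7.52 and 7.52 in control (-0.75 ± 0.16 SE, adjusted p = 0.0264). The call was lost without control 1 (adjusted p = 0.0618), control 2 (0.108), control 3 (0.119), dKO 1 (0.0729) or dKO 2 (0.0550), without both pools with high Xist (0.140) and with the mean of its probe sets (-0.30, adjusted p = 0.439). All dKO arrays also lay lower than all control arrays for Rpap1 (-0.65, adjusted p = 0.0721) and for Ruvbl2, a chaperone ATPase (-0.56, 0.106), which makes 3 of 9 with Rpap2 (33.3%, against 10.7% of all genes). They lay higher for 1, Gpn2 (0.43, adjusted p = 0.222; 11.1%, against 12.7%). In the lists above, they lay higher for 5 of 29 initiation factors (17.2%) and 4 of 21 elongation factors (19.0%) of polymerase II, and lower for 0. Of the 7 polymerase I factors 1 lay lower and 1 higher (14.3% each). Of the 17 polymerase III factors 3 lay lower (17.6%) and 1 higher (5.88%). Of 5 genes of mitochondrial transcription 0 were called, against 5.97% of all genes, and the median was -0.11. Polrmt, the mitochondrial RNA polymerase, differed by 0.20 (adjusted p = 0.665). All dKO arrays lay lower for 1 of the 5 (20%, against 10.7%), Tfb2m (-0.42, adjusted p = 0.339).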

How the data were processed

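Per the submitters' processing notes the deposited log2 values came from RMA run by the authors, which subtracts background, equalizes the distributions of the arrays and combines the probes of a set; the RMA version is not given in the sources used here. Per the labels' protocols, RNA was extracted with Trizol and amplified in 2 rounds with a Nugen kit. Of 45101 probe sets, 64 were controls, 34945 had 1 symbol, 932 several and 9160 none. Symbols were updated by gene identifier (34741 matched) with a RefSeq table of GRCm38.p6. The brightest probe set represented each gene, and limma 3.58.1 in R 4.3.3 (lmFit, eBayes, group as the only term, two-sided, Benjamini-Hochberg over 18193 genes) compared 3 dKO with 3 control arrays. The fit was also run on simulated data, drawn independently for each gene and array. Those data held no shift of a whole array or of the cell mixture, so that run does not test the calls made here. Figures were drawn with matplotlib 3.10.9. Every subunit gene analysed is named, and 1 listed item is not reported here; per-array values follow a rule (called genes, largest and second-largest subunits, shared I and III subunits), while Polr3e, Polr3g, Polr3gl, Polr3k, Polr1e, Cd3eap and Znrd1 were added after their values were seen, as were the uncalled genes named from the other lists. The members and lists were chosen with earlier results of these data known. Alternatives covered dim genes, probe set choice, 3 scalings, variance model, array weights, a replicate block, Xist, the threshold, the membership of classes and single arrays. The pools are separate mice per the series' design; 3 arrays a group limit the precision.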

Additional observations from a re-analysis of the deposited data

How the results depend on the processing

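The negative sign of the subunit medians held under the alternatives run for polymerase I (-0.52 to -0.30), the shared I and III subunits (-0.68 to -0.45), polymerase III (-0.53 to -0.16) and the subunits of all enzymes (-0.21 to -0.085). Both ends of the polymerase I range were values of Polr1a. The polymerase II median, 0.13 as reported, ran from -0.069 to 0.18. The number of subunits called lower was 3 when genes with a mean under 5 were left out and at a threshold of 0.1 (Polr1b, Polr1c and Polr3g), 2 with the mean of probe sets or the Xist covariate (Polr1b and Polr3g) and with a trend and robust variance or array weights (Polr1b and Polr1c), and 0 without control 1 and dKO 1 together. It ran from 0 to 1 with single arrays left out, and within classes it was 0 or 1. Over the alternatives the number of all genes called lower also changed, from 236 to 849, against 519 as reported. With genes of a mean under 5 left out, 12874 genes were tested. At a threshold of 0.1 the subunits called lower were 3 of 25, where 819 of 18193 genes were lower. With array weights they were 2 of 25, where 849 genes were lower. Without control 1 and dKO 1 together they were 0 of 25, where 275 genes were lower. As reported they were 1 of 25, where 519 genes were lower. Whether the subunit counts changed relative to that background was not tested. With the mean of probe sets the polymerase II median was 0.020, the difference between Polr1a and Polr2a -0.23, and 0 initiation factors of polymerase II and 0 assembly factors were called. With array weights the numbers were 2 and 3, the polymerase I factor median was -0.0022, and 849 of all genes were lower. At a threshold of 0.1, 2 assembly factors and 819 of all genes were lower. Without _x_at and _s_at probe sets the medians were 0.024 for elongation factors and -0.092 for polymerase III factors. Without control 1 and dKO 1 together the medians were -0.069 for polymerase II, -0.24 for polymerase I factors and 0.15 for elongation factors, 0 genes of each factor list with a call were called except Ell2, and 275 of all genes were lower and 303 higher. With single arrays left out the ranges were -0.26 to -0.12 for the median of all subunits, -0.031 to 0.18 for polymerase II, also -0.21 to -0.085 for subunits of all enzymes, -0.26 to 0.11 for polymerase I factors, -0.054 to 0.16 for polymerase II initiation factors, 0.040 to 0.17 for elongation factors and -0.19 to -0.045 for polymerase III factors. They were 0 to 1 for calls among polymerase I factors and assembly factors, 0 for initiation factors, 236 to 464 lower and 331 to 617 higher for all genes. Signs reversed, always for genes that were not called, in Polr2a (-0.071, mean of probe sets), Polr3d (-0.12, no _x_at or _s_at probe sets), Polr2b (-0.062) and Polr2c (-0.092) without control 1 and dKO 1 together, Polr2c (-0.083 to 0.25 with single arrays left out, negative without control 3 or dKO 1), Polr2j (-0.28 to 0.028, positive without control 3) and Crcp (-0.043 to 0.37, negative without control 1 or dKO 2). Where no cause is given, the cause was not tested.

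The replicate numbers did not pair the arrays: deviations of same-numbered arrays from their group means correlated at 0.056, -0.00045 and 0.019. With the number as a block 2 subunits were called lower, Polr1b and Polr3g (1 polymerase III gene), and 0 polymerase I factors (Taf1d, adjusted p = 0.0542), 0 polymerase II initiation factors (Taf10, 0.0603) and 0 assembly factors. Of the arrays, dKO 1 correlated best with control 1, dKO 2 with control 1 and dKO 3 with control 2.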
